A study of Mus musculus with 10 samples.

Results

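De novo lipogenesis, the making of fatty acids from acetyl units in the liver, was followed through 10 genes: Srebf1, Mlxipl, Acly, Acaca, Acacb, Fasn, Me1, Thrsp, Gpam and Pnpla3. They were chosen by symbol from the 46071 gene rows of the deposited count table, and all 10 were found and passed the filter on low counts. Liver RNA was sequenced in 3 groups of offspring defined by the genotype of their parents. In FL (3 libraries) the father was a LIRKO mouse, IRlox/lox with Albumin-Cre and so without insulin receptor in its hepatocytes, and the mother was a control. In ML (3 libraries) the mother was the LIRKO parent. In the control group (4 libraries) both parents were IRlox/lox without Cre, so the floxed allele was shared by the parents of all 3 groups. The offspring's own Cre genotype, sex, age, litter, diet, feeding state and hour of collection were not given in the labels, nor whether every library is its own animal. The p-values therefore cover the spread from library to library, which may be technical.

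In this pathway ATP citrate lyase (Acly) splits cytosolic citrate into acetyl-CoA, the acetyl-CoA carboxylases (Acaca, Acacb) turn it into malonyl-CoA, and fatty acid synthase (Fasn) builds palmitate with NADPH that malic enzyme (Me1) helps to supply. SREBP1c, made from Srebf1 and induced by insulin, and ChREBP, made from Mlxipl and activated by sugar metabolites, are the main transcription factors that switch these enzymes on after a meal. Thrsp, Gpam and Pnpla3 are known hepatic targets of one or both factors: Thrsp (Spot 14) is a lipogenic cofactor, Gpam starts glycerolipid synthesis in mitochondria, and Pnpla3 is a lipid droplet protein.

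The promoters of 3 of the 4 members whose ML libraries all lay below the controls, and 1 promoter of the factor Srebf1, are shown. That of Acacb, also among the 4, is not printed. None of the stretches shown holds the exact letters of the E-box CACGTG or of the sterol regulatory element TCACNCCAC. Sites with other letters were not searched for, so this does not tell whether SREBP1c or ChREBP acts there. Binding was not tested. Each line is the 120 bases before a start annotated by RefSeq on GRCm38.p6, written 5′ to 3′ on the gene's strand, with capitals for 3 motifs found on either strand: the CCAAT box, the GC box (GGGCGG) and the general E-box (written CANNTG). In Fasn the CANNTG match overlaps CCAAT matches.
Fasn, chr11:120824548-120824667, minus strand: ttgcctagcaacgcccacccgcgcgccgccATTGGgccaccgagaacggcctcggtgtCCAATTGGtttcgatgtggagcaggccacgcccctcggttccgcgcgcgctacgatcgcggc
Acly, chr11:100528001-100528120, minus strand: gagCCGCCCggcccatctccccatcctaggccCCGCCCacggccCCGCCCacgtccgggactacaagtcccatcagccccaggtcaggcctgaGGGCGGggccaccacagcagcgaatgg
Pnpla3, chr15:84167696-84167815, plus strand: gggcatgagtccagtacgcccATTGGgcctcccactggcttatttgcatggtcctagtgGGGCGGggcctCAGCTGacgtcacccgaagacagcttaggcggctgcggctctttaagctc
Srebf1, chr11:60210472-60210591, minus strand: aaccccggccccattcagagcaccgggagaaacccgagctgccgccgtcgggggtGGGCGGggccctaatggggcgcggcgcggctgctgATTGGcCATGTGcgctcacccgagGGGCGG
All 10 members had a RefSeq start, 15 in all. In the 250 bases before each start, a CCAAT box was found for 9 of the 15 starts, against 33.8% of the 32851 starts in the table. A GC box was found for 7 of the 15, against 32.7%, and CANNTG for 10, against 66.2%. The E-box CACGTG, itself a form of CANNTG, was found for 1 start of Mlxipl, against 6.02% of all starts. The sterol regulatory element letters TCACNCCAC were found for another start of Mlxipl, against 1.05%. These are matches of letters in one window. Which start was used cannot be read from counts per gene.

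Totals were 23192571 to 31116742 counts in FL, 26614915 to 34568205 in ML and 18655506 to 39379940 in controls. ML 9 and control 1 stood apart: the summed level of 8 short nuclear oxidative phosphorylation genes was 13730 CPM (counts scaled to library size with TMM factors) in ML 9 and 4789 CPM in control 1, against 1147 to 2002 CPM in FL, 2326 CPM in ML 8, 3432 CPM in ML 10 and 1438 to 1526 CPM in controls 2 to 4. All ML libraries thus lay above all FL libraries and above controls 2 to 4. Of these 8 genes, 6 were higher in ML than in control at an unadjusted p under 0.05 (median log2 fold change 1.42), where 8.81% of all genes were higher. Without control 1 and ML 9, 7 were higher (median 0.92), where 27.5% of all genes had such a p in either direction. The part of these 8 genes in the ML results was not tested. The 5597 genes with more than 5000 bp of exon had a median log2 deviation from their own mean of -0.46 in ML 9 and -0.23 in control 1, against -0.12 to 0.26 elsewhere. The exons of the members run from 1.55 kb (Pnpla3) to 17.1 kb (Acaca), and each member's comparisons with control are also given without these 2 libraries. Insr, the gene deleted in the LIRKO parent, had 77.6, 59.3 and 59.4 CPM in FL, 54.4, 28.2 and 55.2 CPM in ML, and 62.9, 82.2, 128 and 69.1 CPM in controls. All ML libraries lay below all controls, which held for 2.86% of all genes tested. FL 6 and FL 7 also lay below the lowest control. Insr did not pass the test in FL or ML. Which exons were deleted is not in the labels, so this is a partial check of genotype. Summed hepatocyte markers (9 genes) were at 68920 to 74830 CPM in FL, 60690 to 103300 CPM in ML and 69150 to 99000 CPM in controls and were high in all 10 libraries. In such bulk samples, fewer cells of a type and less RNA per cell cannot be told apart.

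In the offspring of LIRKO fathers most of the 10 genes overlapped the control range, and in the offspring of LIRKO mothers Fasn, Acacb and Acly lay below the control range while Acaca and Me1 overlapped it. In FL, Fasn was at a log2 fold change of -0.26, Acacb at -0.33 and Acly at -0.08, and Me1 (-1.46) and Pnpla3 (-3.30) were the members whose libraries all lay below the controls. In ML, Fasn was 4.94-fold lower (-2.30), Acacb at -2.14 and Acly at -1.21, each with all 3 ML libraries below all 4 controls. No member passed an edgeR quasi-likelihood test at an adjusted p under 0.05 over 14820 genes in any comparison. The limma-voom test also called no member.

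Both transcription factors overlapped between groups. Srebf1 (ENSMUSG00000020538, GRCm38 chromosome 11, 60199089 to 60222581) had 191, 284 and 212 CPM in FL, 199, 140 and 99.0 CPM in ML, and 220, 99.5, 184 and 302 CPM in controls. Only ML 10 lay below the lowest control, and the groups overlapped. Against control its log2 fold change was 0.19 (SE 0.38) for FL and -0.46 (SE 0.39) for ML. The edgeR adjusted p was 0.9997 in FL and 0.522 in ML. Without control 1 and ML 9 the values were 0.24 in FL and -0.38 in ML.

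Mlxipl (ENSMUSG00000005373, chromosome 5, 135089890 to 135138382) varied more within groups than 98.9% of the genes tested. It had 143, 444 and 77.02 CPM in FL, 66.3, 95.2 and 45.9 CPM in ML, and 78.8, 327, 80.9 and 604 CPM in controls. Control 2, control 4 and FL 6 were high, and ML 9 lay above control 1 and control 3. Against control its log2 fold change was -0.30 (SE 0.75) for FL and -1.98 (SE 0.79) for ML, with an edgeR adjusted p of 0.9997 in FL and 0.301 in ML. Without control 4 the FL value was 0.45 and the ML value -1.24, and without FL 6 the FL value was -1.31. Mlxipl was at -0.60 in FL and -2.58 in ML without control 1 and ML 9. A pooled SD within groups of 1.21 on the log2(CPM + 1) scale compares with 0.54 for Srebf1 and a median of 0.42 over all genes tested.

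**Figure D1:**
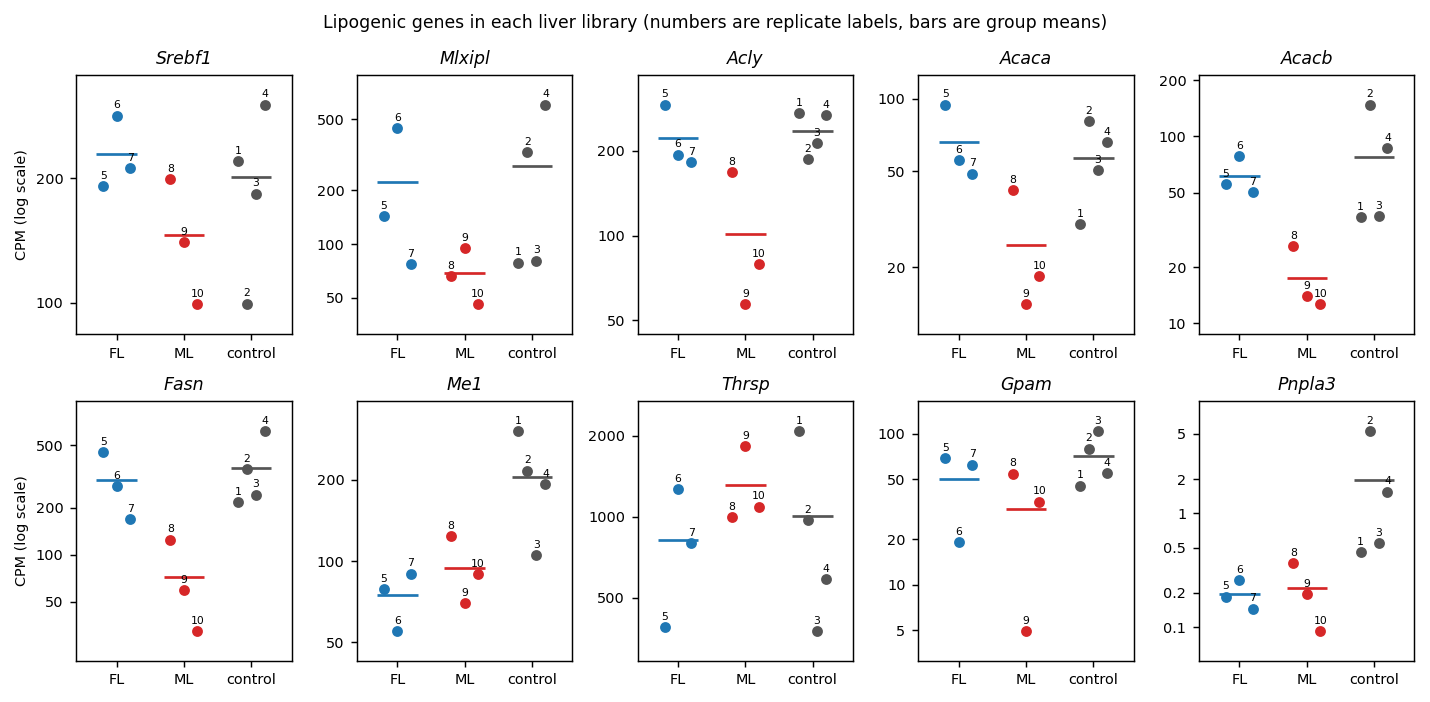
Level of each of the 10 genes in every library, in CPM on a log axis, with FL, ML and control libraries side by side, numbers naming the replicate and bars at the group mean. The ML points lie below every control for Acly, Acacb, Fasn and Pnpla3, and the FL points lie below every control for Me1 and Pnpla3.

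Of the enzymes that make malonyl-CoA and palmitate, Fasn (ENSMUSG00000025153, chromosome 11, 120805846 to 120824547) differed most between ML and control. It had 452, 274 and 170 CPM in FL, 125, 59.5 and 32.6 CPM in ML, and 216, 353, 242 and 619 CPM in controls. Every ML library was below every FL and control library. Mean levels were 298 ± 143 CPM in FL, 72.4 ± 47.5 CPM in ML (SD, n = 3 each) and 357 ± 185 CPM in controls (SD, n = 4). ML against control was at a log2 fold change of -2.30 (SE 0.56, unadjusted p 0.00154), with an edgeR adjusted p of 0.301. It was -2.16 without ML 9, -2.96 without ML 8 and -2.35 without control 1 and ML 9, where FL against control was at -0.43. DESeq2 called Fasn lower in ML at an adjusted p of 0.0156 and edgeR did not.

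Acacb (ENSMUSG00000042010, chromosome 5, 114146535 to 114250761), the carboxylase whose malonyl-CoA restrains fatty acid entry into mitochondria, had 55.3, 78.5 and 50.4 CPM in FL, 25.9, 14.0 and 12.6 CPM in ML, and 37.0, 148, 37.4 and 86.9 CPM in controls. All ML libraries were lower than all others. The log2 fold change of ML against control was -2.14 (SE 0.52, unadjusted p 0.00158, edgeR adjusted p 0.301), or -1.61 without control 2. Acacb was at -0.56 in FL and -2.23 in ML without control 1 and ML 9. DESeq2 called it lower in ML at an adjusted p of 0.0234.

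Acaca (ENSMUSG00000020532, chromosome 11, 84129672 to 84401651), the cytosolic carboxylase that feeds fatty acid synthesis, had 94.6, 55.5 and 49.0 CPM in FL, 41.8, 14.0 and 18.4 CPM in ML, and 30.2, 80.8, 50.6 and 66.3 CPM in controls. ML 8 lay above control 1, and the other ML libraries lay below every control. For ML against control the log2 fold change was -1.20 (SE 0.46, unadjusted p 0.0226, edgeR adjusted p 0.301). It was -0.58 after removal of the trend with exon length and GC, and with a surrogate variable -0.45. It was -0.90 without ML 9 and -1.81 without ML 8. Acaca was at 0.017 in FL and -1.13 in ML without control 1 and ML 9. In CPM, Acaca was above Acacb in FL 5, ML 8, ML 10 and control 3, equal in ML 9 and lower elsewhere. Per kilobase of all annotated exons merged (17.1 kb for Acaca, 9.63 kb for Acacb), Acacb was above Acaca in every library. That order thus depends on the length used, which can exceed that of 1 transcript. Per kilobase the ratio of Acaca to Acacb was 0.965, 0.399 and 0.549 in FL, 0.909, 0.564 and 0.823 in ML, and 0.460, 0.308, 0.764 and 0.430 in controls. This ratio overlapped between the groups.

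Acly (ENSMUSG00000020917, chromosome 11, 100476353 to 100528000) had the lowest SD within groups of the 10 (0.50 on the log2 scale), with 292, 194 and 182 CPM in FL, 168, 56.9 and 79.2 CPM in ML, and 272, 187, 213 and 269 CPM in controls. ML 8 was just under the lowest control, and ML 9 and ML 10 were well under it. The log2 fold change of ML against control was -1.21 (SE 0.39, unadjusted p 0.00936, edgeR adjusted p 0.301), -0.91 without ML 9 and -1.79 without ML 8. Acly was at 0.0058 in FL and -0.85 in ML without control 1 and ML 9. Among Fasn, Acaca, Acacb and Acly, Pearson's r of log2(CPM + 1) over the 10 libraries, which share depth and group, lay between 0.72 (Acacb and Acly) and 0.89 (Fasn and Acaca). With the group means removed, r was 0.14 for Acacb and Acly and 0.77 for Fasn and Acaca.

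Me1 (ENSMUSG00000032418, chromosome 9, 86581371 to 86695953), malic enzyme, had lower mean levels in both offspring groups than in controls. It had 78.9, 55.2 and 89.9 CPM in FL, 124, 70.0 and 89.7 CPM in ML, and 304, 217, 106 and 193 CPM in controls. All FL libraries lay below all controls, and ML 8 lay above control 3. Mean levels were 74.7 ± 17.7 CPM in FL, 94.6 ± 27.3 CPM in ML (SD, n = 3 each) and 205 ± 81.6 CPM in controls (SD, n = 4). The log2 fold change was -1.46 (SE 0.38, unadjusted p 0.0027, edgeR adjusted p 0.742) in FL and -1.11 (SE 0.38, unadjusted p 0.0128, edgeR adjusted p 0.301) in ML. Me1 was at -1.19 in FL and -0.68 in ML without control 1 and ML 9. The FL and ML comparisons share the 4 controls, and FL against ML was at -0.34 (SE 0.39).

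Thrsp (ENSMUSG00000035686, chromosome 7, 97412938 to 97417730) had a higher mean in ML than in controls. It had 388, 1263 and 799 CPM in FL, 998, 1832 and 1088 CPM in ML, and 2082, 968, 377 and 587 CPM in controls. The groups overlapped, control 1 and ML 9 were the highest libraries, and control 3 and FL 5 the lowest. Against control its log2 fold change was -0.30 (SE 0.57) for FL and 0.38 (SE 0.56) for ML, with an edgeR adjusted p of 0.9997 in FL and 0.732 in ML. The ML value was 0.07 without ML 9, 1.02 without control 1 and -0.26 with a surrogate variable. Thrsp was at 0.35 in FL and 0.70 in ML without control 1 and ML 9. Without control 1, with or without ML 9, the ML libraries all lay above the remaining controls. Per kilobase of exon Thrsp stood above the other members in all 10 libraries. The ratio of Thrsp to Fasn per kilobase was 4.30, 23.1 and 23.6 in FL, 39.9, 154 and 167 in ML, and 48.3, 13.7, 7.79 and 4.74 in controls. Its r with Fasn over the 10 libraries was -0.50 and with Gpam -0.67.

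Of the 2 members that handle the finished fatty acids, Gpam (ENSMUSG00000024978, chromosome 19, 55067268 to 55127238), the mitochondrial glycerol-3-phosphate acyltransferase, had 68.5, 19.1 and 62.3 CPM in FL, 54.3, 4.96 and 35.5 CPM in ML, and 45.2, 79.5, 104 and 55.0 CPM in controls. ML 9 (76 counts) and FL 6 (658 counts) were the low libraries, and the groups overlapped. The log2 fold change was -0.51 (SE 0.66) in FL and -1.17 (SE 0.67) in ML, with an edgeR adjusted p of 0.9997 in FL and 0.372 in ML. Without FL 6 the FL value was -0.12, and the ML value was -0.65 without ML 9 and -1.80 without ML 8. Gpam was at -0.67 in FL and -0.82 in ML without control 1 and ML 9.

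Pnpla3 (ENSMUSG00000041653, chromosome 15, 84167837 to 84187236) had few reads. It had 5, 9 and 5 counts in FL, 14, 3 and 3 counts in ML, and 8, 208, 21 and 69 counts in controls. That is 0.185, 0.261 and 0.146 CPM in FL, 0.368, 0.196 and 0.093 CPM in ML, and 0.456, 5.30, 0.543 and 1.55 CPM in controls. After scaling to library size, all FL and ML libraries lay below all controls, and control 2 was the highest. In raw counts FL 6 (9) and ML 8 (14) lay above control 1 (8), so the gap to control 1 rests on the scaling. Of the FL and ML libraries only ML 8 had at least 10 counts. Pnpla3 thus passed the filter on low counts only through the controls, and its lack of overlap is not support for a change. The log2 fold change was -3.30 (SE 0.91, unadjusted p 0.00365, edgeR adjusted p 0.784) in FL and -3.12 (SE 0.91, unadjusted p 0.00514, edgeR adjusted p 0.301) in ML. Without control 2 these values were -2.11 in FL and -1.93 in ML, and without control 1 and ML 9 they were -3.61 in FL and -3.36 in ML. DESeq2 called Pnpla3 lower in FL at an adjusted p of 0.037.

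**Figure D2:**
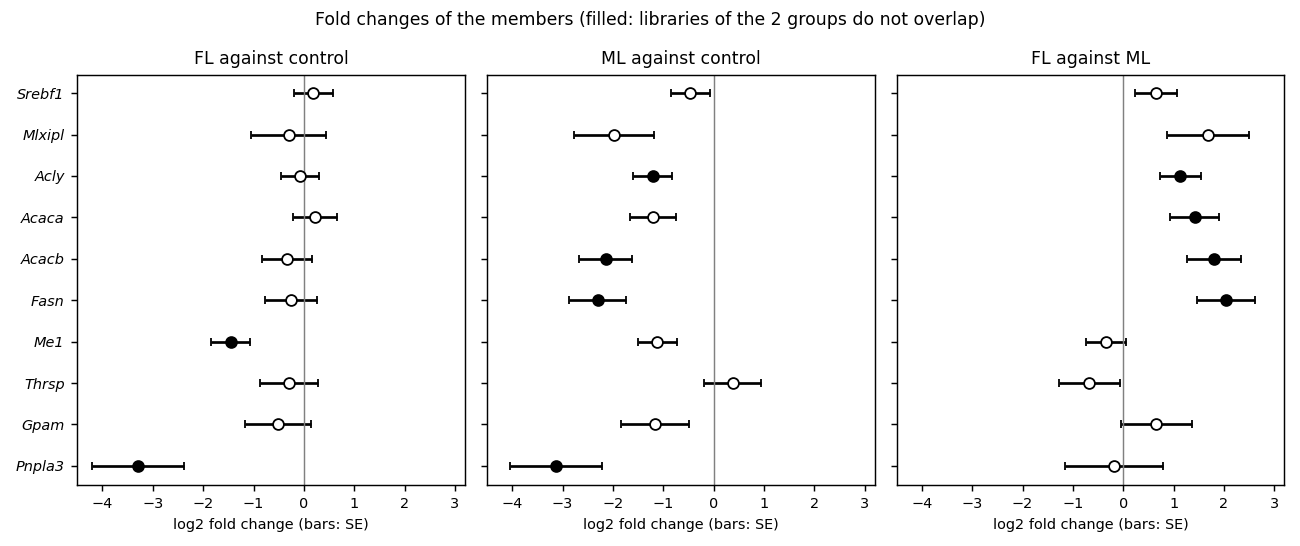
Log2 fold change with its standard error (SE) for each of the 10 genes in FL against control, ML against control and FL against ML, with filled points where the libraries of the 2 groups do not overlap. In ML against control 9 of 10 genes lie below 0, Fasn at -2.30 and Thrsp at 0.38.

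Counted over the members, FL against control gave 8 of 10 below 0 at a median log2 fold change of -0.30, where 55.3% of all genes lay below 0. With edgeR 0 of 10 passed, against 0.0135% of all genes, and DESeq2 called 1. Only Me1 and Pnpla3 had an unadjusted p under 0.05, both lower, against 3.53% of all genes, 1.90% lower and 1.63% higher. The same 2 genes were the members without overlap between FL and control libraries, against 5.71% of all genes without overlap, 2.92% lower and 2.79% higher. Pnpla3 passed the filter on low counts only through the controls, so it adds no support to these counts. Of the other 8 members, Acaca and Srebf1 lay above 0 and the rest between -0.51 and -0.08, all with an edgeR adjusted p of 0.9997.

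In ML against control 9 of 10 members were below 0 at a median log2 fold change of -1.21, where 52.9% of all genes tested lay below 0 at a median of -0.05. With edgeR 0 of 10 passed (0% of all genes passed), and 7 of 10 were lower at an unadjusted p under 0.05: Fasn, Acacb, Pnpla3, Acly, Me1, Acaca and Mlxipl. Of all genes tested, 16.1% had such a p, 7.33% lower and 8.81% higher. DESeq2 called 2 members. The 4 members whose ML libraries all lay below the controls, Fasn, Acacb, Acly and Pnpla3, compare with 5.03% of all genes without overlap, 2.86% lower and 2.17% higher. Here too Pnpla3, which passed the filter on low counts only through the controls, adds no support to the counts. Without ML 9, 6 of 10 had an unadjusted p under 0.05 where 4.37% of genes did in either direction, at a member median of -0.92. Without ML 8, 7 of 10 did where 19.7% of genes did, at a member median of -1.81. Without control 1 and ML 9, 6 of 10 did where 27.5% of genes did.

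FL against ML set the 2 offspring groups against each other directly, with 3 of 10 members below 0, where 47.9% of all genes lay, at a median of 0.90. Fasn was at 2.04 (SE 0.58), Acacb at 1.81 (SE 0.54), Acaca at 1.42 (SE 0.48) and Acly at 1.13 (SE 0.41), each with every FL library above every ML library and an edgeR adjusted p of 0.238. With edgeR 0 of 10 members passed, against 0.00675% of all genes, 4 had an unadjusted p under 0.05 and were higher in FL, against 20.0% of all genes, 7.59% higher and 12.4% lower, and DESeq2 called Fasn at an adjusted p of 0.0363. FL and ML libraries did not overlap for 31.7% of all genes, 16.6% higher in FL and 15.1% lower, so 4 of 10 members is a share near the background. With a surrogate variable 0 of 10 members had an unadjusted p under 0.05, where 1.82% of all genes did. Over the alternatives other than 1 library left out, Fasn ran from 1.28 to 2.33, Acacb from 1.06 to 1.86, Acaca from 0.51 to 1.49 and Acly from 0.84 to 1.25. Each of these 4 has more than 5000 bp of exon. The median log2 deviation of such genes was 0.02 to 0.26 in FL and -0.46 to -0.06 in ML.

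**Figure D3:**
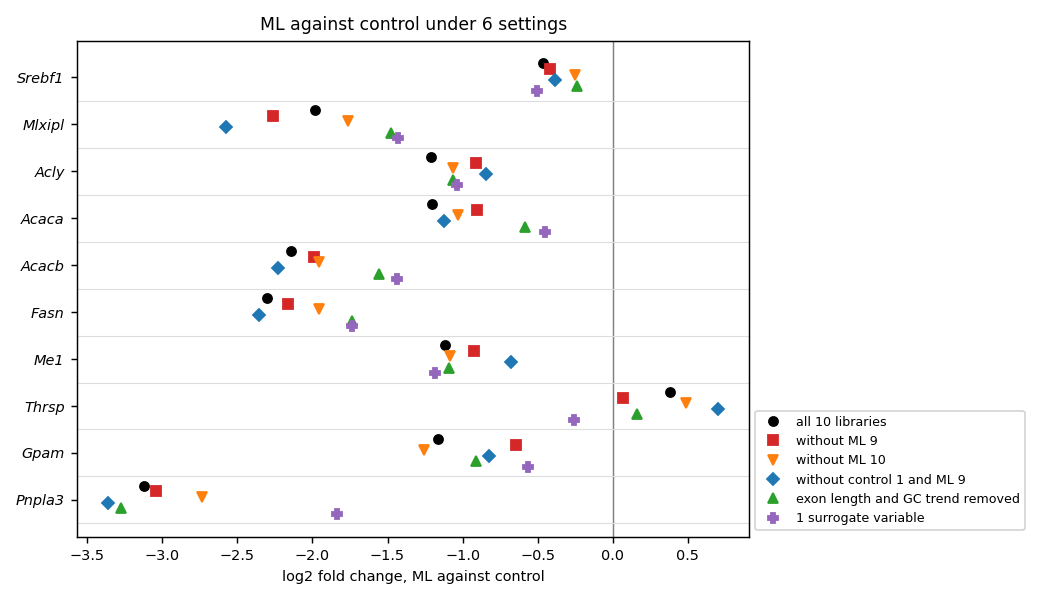
Log2 fold change of each gene in ML against control with all 10 libraries, without ML 9, without ML 10, without control 1 and ML 9, with the exon length and GC trend removed, and with 1 surrogate variable. Fasn lies between -2.35 and -1.73 in all 6 settings, and Thrsp lies on both sides of 0.

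Per kilobase of exon, the order of mean levels in FL was Thrsp (373 CPM per kb), Acly (42.2), Srebf1 (40.7), Mlxipl (39.9), Fasn (27.3), Me1 (19.4), Gpam (7.50), Acacb (6.37), Acaca (3.89) and Pnpla3 (0.127). In ML it was Thrsp (597 CPM per kb), Srebf1 (25.9), Me1 (24.6), Acly (19.2), Mlxipl (12.5), Fasn (6.61), Gpam (4.74), Acacb (1.82), Acaca (1.45) and Pnpla3 (0.141). In controls it was Thrsp (458 CPM per kb), Me1 (53.2), Mlxipl (49.2), Acly (44.5), Srebf1 (35.7), Fasn (32.7), Gpam (10.7), Acacb (8.03), Acaca (3.34) and Pnpla3 (1.27). The libraries of Thrsp did not overlap those of the next gene in any group. From the second place to Gpam, neighbours overlapped in each group, except Me1 and Gpam in FL and Fasn and Gpam in controls. The members together took 0.188 to 0.296% of the counts in FL, 0.132 to 0.207% in ML and 0.145 to 0.321% in controls. Their summed level was 1692 to 2666 CPM in FL, 1501 to 2287 CPM in ML and 1394 to 3285 CPM in controls, of which Thrsp gave 1832 of 2287 CPM in ML 9. Without Thrsp, a sum added after its values were seen, it was 893 to 1403 CPM in FL, 413 to 805 CPM in ML and 1018 to 2196 CPM in controls.

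The wider pathway held 71 genes in 7 lists around these members, of which 70 were tested. With edgeR none passed in either comparison with control. At an unadjusted p under 0.05, 6 were lower and 1 higher in FL (10.0% of the 70, against 3.53% of all genes), at a median log2 fold change of -0.05. In ML 10 were lower and 4 higher (20.0% of the 70, a share near the 16.1% of all genes), at a median of -0.30. Of all genes, 7.33% were lower and 8.81% higher. Without ML 9 no pathway gene was higher at such a p. Those lower were 3 of 12 citrate, pyruvate and NADPH supply genes, 3 of 12 desaturation and elongation genes, 1 of 10 insulin input genes and 1 of 13 glycerolipid genes. In that setting 4.37% of all genes had such a p in either direction. Without control 1 and ML 9 the ML medians of the lists lay between -0.64 (SREBP1 processing) and 0.037 (malonyl-CoA turnover). The genes named below were among those with the lowest p of their list, and their values are log2 fold changes against control.

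Of 10 genes for SREBP1 processing and the liver X receptors, 6 lay below 0 in FL at a median of -0.03, and 9 in ML at a median of -0.55. Insig2, which retains SREBP precursors in the endoplasmic reticulum, was at -2.05 (SE 0.49) in FL with no overlap with controls, and Rxra, the partner of the liver X receptors, at 0.31 (SE 0.37). Nr1h3, the liver X receptor that induces Srebf1, was at 1.19 (SE 0.41) in ML, or 0.43 without ML 9. Insig1, a relative of Insig2 and itself an SREBP target, was at -1.07 (SE 0.41) in ML. Of 10 insulin input genes, 5 were below 0 in FL, with the kinase Akt1 at 0.78 (SE 0.29) and the receptor substrate Irs2 at -1.25 (SE 0.84). In ML 9 were below 0 at a median of -0.47, or 7 at -0.29 without ML 9, with Irs2 at -3.08 (SE 0.93) and Insr at -0.90 (SE 0.34). Irs2 was near the floor in ML 9 (0.065 CPM) and overlapped with controls. It had 1.16 CPM in ML 8 and 2.08 CPM in ML 10, against 0.912 CPM in control 1.

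Of 7 glucose entry and ChREBP partner genes, 4 lay below 0 in FL at a median of -0.09, and 3 in ML at a median of 0.34. The ML direction rested on ML 9: without it 5 of 7 lay below 0 at a median of -0.12, and without control 1 and ML 9 4 of 7 at -0.17. Txnip, a ChREBP target, was at -1.66 (SE 0.43) in FL with no overlap with controls, and Khk, the fructose kinase, at -0.58 (SE 0.58). Mlx, the partner of ChREBP, was at 0.70 (SE 0.35) in ML, or 0.44 without ML 9.

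Of 12 genes that supply citrate, pyruvate and NADPH, 9 were below 0 in FL at a median of -0.13, and 7 in ML at -0.05, or -0.27 without ML 9. Acss2, which makes acetyl-CoA from acetate, was at -0.76 (SE 0.33) in FL and at -1.15 (SE 0.33) in ML, where it did not overlap with controls. Mpc1, a pyruvate carrier subunit, was at -0.74 (SE 0.46) in FL. Pgd, an NADPH-making enzyme of the pentose phosphate pathway, was at -0.95 (SE 0.33) in ML. Of 7 genes of malonyl-CoA turnover, 2 were below 0 in FL, with Mid1ip1, a partner of acetyl-CoA carboxylase related to Thrsp, at 0.84 (SE 0.48) and the kinase subunit Prkaa2 at 0.50 (SE 0.38). In ML 4 were below 0, with Mlycd, which breaks down malonyl-CoA, at 0.75 (SE 0.39) and Prkag1 at 0.70 (SE 0.38), or 0.29 for Mlycd and 0.0029 for Prkag1 without ML 9.

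Of 12 desaturation and elongation genes, 6 were below 0 in FL at a median of -0.02, and 10 in ML at -0.42. The elongase Elovl5 was at -1.79 (SE 0.40) in FL and -1.73 (SE 0.40) in ML, and did not overlap with controls in either. Elovl3, another elongase, was at -2.29 (SE 0.48) in FL and -1.43 (SE 0.46) in ML. Scd1, the main hepatic desaturase, was at -1.80 (SE 0.53) in FL and -2.48 (SE 0.55) in ML. Elovl3 overlapped with controls in ML, and Scd1 did so in FL. Of 12 glycerolipid synthesis genes tested, 9 were below 0 in FL at a median of -0.17, and 7 in ML at -0.08, or -0.22 without control 1 and ML 9. Mogat1 was at -1.25 (SE 0.59) and Lpin2 at -0.77 (SE 0.42) in FL. Lpin3 was at -1.28 (SE 0.40) in ML with no overlap with controls, and Agpat2 at 0.99 (SE 0.43), or 0.43 without ML 9.

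**Figure D4:**
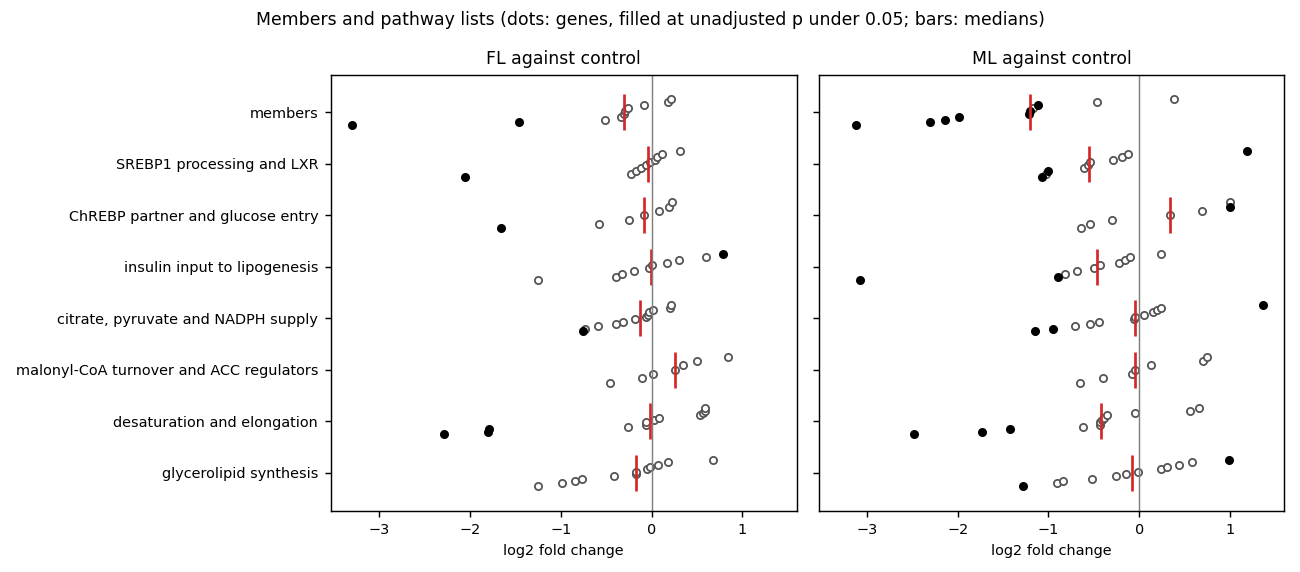
Log2 fold changes of the 10 members and of 7 pathway lists in FL against control and ML against control, each dot a gene, filled at an unadjusted p under 0.05, with a bar at the list median. The median of the members is -0.30 in FL and -1.21 in ML, and the list medians lie between -0.17 and 0.26 in FL and between -0.55 and 0.34 in ML, where the 0.34 of the ChREBP list is -0.12 without ML 9.

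Fat cells also make these enzymes, so their markers were read in each library. The summed level of 8 adipocyte markers was 26.5 to 36.0 CPM in FL, 31.2 to 64.4 CPM in ML and 26.5 to 60.1 CPM in controls. Adipoq, the adipocyte hormone adiponectin, was at 0 in all 3 FL libraries, at 1.71, 1.96 and 0.031 CPM in ML, and at 0, 0.025, 2.43 and 0 CPM in controls. The adipocyte sums of ML and control libraries overlapped, and Fabp4, Cidec and Lipe made up most of each sum. Of 5 tested, 3 (Fabp4, Cfd and Adipoq) were lower in FL than in control at an unadjusted edgeR p under 0.05. Of all genes, 1.90% were. In ML against control 0 of 5 had such a p. Adipoq passed the filter on low counts only through the other groups, and Cfd was near the floor in FL (0.11, 0.41 and 0.12 CPM). Erythroid markers (5 genes) summed to 127 to 249 CPM in FL, 313 to 2114 CPM in ML and 184 to 625 CPM in controls, highest in ML 9, and Kupffer cell and macrophage markers (7 genes) to 229 to 315 CPM in FL, 203 to 910 CPM in ML and 225 to 392 CPM in controls. Cholangiocyte markers (7 genes) summed to 33.4 to 69.3 CPM in FL, 22.6 to 71.2 CPM in ML and 29.3 to 56.3 CPM in controls. Of 6 tested, 3 were higher in ML than in control at an unadjusted p under 0.05, Krt7 (2.08), Krt19 (2.83) and Muc1 (1.65). Of all genes, 8.81% were higher at such a p. Of the other cholangiocyte markers tested, Epcam was at 0.54, and Sox9 (-0.49) and Spp1 (-0.26) lay below 0. Without ML 9, 3 were higher at such a p, where 4.37% of all genes had one in either direction. Krt19 had 11.6, 3.72 and 0.589 CPM in ML, against 0.285 to 1.39 CPM in controls. Their part in the results was not tested.

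The genes whose pattern over the 10 libraries was most like that of the members, of 11188 genes with a mean of at least 1 CPM, are given as a description, since all points share libraries and depth. For the mean of the 10 standardised members these were Slc12a5 (Pearson's r 0.92), Ago4 (0.91), Dock10 (0.91), Pgd (0.90) and Pltp (0.90). That mean was lowest in ML 9 (-1.08) and ML 10 (-1.07) and highest in control 4 (0.86) and control 2 (0.79). For Srebf1 they were Mid1ip1 (0.88), Ciapin1 (0.86), Shmt1 (0.83), Spns2 (0.83) and Tap1 (0.83). For Mlxipl they were AI480526, Fam193b, Pabpn1, Dtx3 and Itga10, at r of 0.975 to 0.981, with a GC content of 52.1 to 58.1%, where Mlxipl has 57.5%. The r of Mlxipl was 0.73 with Fasn and 0.80 with Acacb, and that of Srebf1 with Mlxipl was 0.41.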

How the data were processed

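The authors deposited unnormalized read counts per gene, made with STAR and featureCounts on GRCm38 per the submitters' processing notes. According to the labels' protocols, polyA RNA went into a directional library kit. Neither tool versions nor the annotation and strand setting were given, so reads of antisense or overlapping genes could be shared. At most 6.78% of a member's exon bases are shared with another annotated gene (Pnpla3). Of 46071 rows, 45229 matched GENCODE M21 on GRCm38, which gave symbols, coordinates and exon length. Exon length is that of all annotated exons of a gene merged, so levels per kilobase depend on its annotated transcripts. Promoters came from RefSeq (GRCm38.p6).

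All 10 libraries were fitted together in edgeR 4.0.16 (R 4.3.3) with TMM factors, filterByExpr (minimum count 10), robust quasi-likelihood F tests and Benjamini-Hochberg adjustment over 14820 genes, with 7 residual degrees of freedom. A gene passed at a two-sided adjusted p under 0.05. SE is the log2 fold change over the square root of F. The procedure was also run on simulated counts. Its recovery rate is not given here, so a member that did not pass is not shown to be unchanged. Alternatives were DESeq2 1.42.0, limma 3.58.1 (voom, with or without quality weights), DESeq2 size factors, other filters, the compared groups only, 1 surrogate variable (sva 3.50.0), removal of each library's trend with exon length and GC, and left-out libraries. The members, lists and alternatives were chosen with earlier results of these data known. Of each pathway list, the 2 genes with the lowest p in FL and in ML against control were named, except 1 that is not reported here. Depth per library limits the precision of Pnpla3, with 3 to 208 counts.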

Additional observations from a re-analysis of the deposited data

How the results depend on the processing

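No paired analysis was possible because the groups share no replicate number. Over 20 alternatives, 182 of 199 member values kept their sign in FL against control, 198 of 199 in ML against control and 192 of 198 in FL against ML. Leaving libraries out of the counts of members without overlap was chosen after seeing the data. DESeq2 called 52 genes and 1 member in FL against control, 46 genes and 2 members in ML against control, and 248 genes and 1 member in FL against ML. With no filter on low counts edgeR called 1 gene in FL, 3 in ML and 2 in FL against ML. In FL against control limma-voom called 1 gene, and with quality weights 4, and in FL against ML 4 with weights. In FL against ML 0 genes passed with only those groups or with the trend removed. A mean CPM of at least 1 removed Pnpla3 from the test, and 1 of the 9 members tested had an unadjusted p under 0.05 in FL against control (3.54% of all genes). At such a p, the surrogate variable left 4 members in ML against control (2.56% of all genes) and 0 in FL against ML (1.82%). Without control 1 and ML 9, 8 members did not overlap in ML against control, 7 lower and 1 (Thrsp) higher, where 48.4% of all genes did not. Leaving out 1 library at a time gave 0 to 3 genes in FL against control, 0 to 1 in ML against control and 0 to 2 in FL against ML. It gave 5 to 7 members at an unadjusted p under 0.05 in ML against control (4.37 to 35.1% of all genes), 2 to 5 in FL against ML (4.79 to 28.8%), and 4 to 7 members without overlap in ML against control (7 without control 1, 6 lower and Thrsp higher, with 39.7% of all genes, and 7 without ML 8, all lower, with 15.7%). Signs turned in FL against control for Acaca (-0.0030) and Thrsp (0.20) with quality weights, Thrsp with the surrogate variable (0.045), Srebf1 with the trend removed (-0.071), and Acly (0.0058) and Thrsp (0.35) without control 1 and ML 9. With 1 library left out, FL against control ran from -0.69 to 0.14 for Fasn, -0.12 to 0.44 for Acaca, -0.56 to 0.19 for Acacb, -0.32 to 0.051 for Acly, -0.040 to 0.45 for Srebf1, -1.31 to 0.45 for Mlxipl and -0.75 to 0.34 for Thrsp. In ML against control Thrsp was at -0.26 with the surrogate variable. In FL against ML, Pnpla3 was at 0.21 with quality weights, 0.00019 with the trend removed and -0.56 to 0.55 with 1 library left out, and the surrogate variable put Thrsp at 0.31 and Gpam at -0.18. The cause was not tested. Pnpla3 is limited by its depth.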
